A study of Mus musculus with 2 samples.

Results

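The miRNAs numbered from miR-3057 to miR-3113, leaving out miR-3070, miR-3071 and miR-3072, were measured in exosomes of mouse cells. The cells were labelled as pancreatic cancer cells and as pancreatic ductal epithelial cells. The members were chosen by the number in their name on the array. Of 1881 mouse miRNAs on the array, 107 had such a name, and they came from 52 hairpins that each had probes for both arms. KPC-exosomes were isolated from culture supernatants of a murine pancreatic cancer cell line, which was derived from a tumour of mice carrying Pdx1-Cre with the alleles KrasLSL-G12D/+ and Trp53LSL-R172H/+, so that both mutant alleles had been switched on by a recombinase driven by a promoter of pancreatic progenitor cells. MPDC-exosomes, the control of the study, came from the supernatants of MPDC, a purchased murine cell line labelled as pancreatic ductal epithelial. No allele is given for this line. KPC cells were kept in RPMI-1640 with 20% foetal bovine serum and MPDC cells in DMEM with 10%, and supernatants of both were collected in medium with serum freed of exosomes. Cy3-labelled RNA of each was hybridised to its own array, and both arrays were on 1 slide. Because each group was 1 cell line and 1 array, no test between groups was possible. The errors given come from those of the scanner, which cover the measurement on these arrays and not the variation between preparations. In such preparations, fewer vesicles that carry a miRNA and fewer copies per vesicle cannot be told apart.

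A miRNA is cut from a hairpin in the nucleus and then by Dicer in the cytoplasm, which leaves a short duplex made of the 5′ arm (5p) and the 3′ arm (3p) of the hairpin. An Argonaute protein usually keeps 1 arm and drops the other, and the kept arm finds messenger RNAs mainly through its seed, bases 2 to 8. Many hairpins lie in introns of protein-coding genes and are transcribed with them, and exosomes carry a part of the miRNAs of the cell that released them. Numbers in miRNA names follow the order in which sequences were registered, so neighbouring numbers do not mean a shared seed, cluster or function.

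RefSeq (GRCm38.p6) held a mature sequence for 95 of the 107 members. The sequences of the members with the largest signals and differences are shown 5′ to 3′ with the seed in capitals, so that they can be set beside the signals. The first lines are members with a higher signal in KPC-exosomes.
miR-3104-5p, chr7:141992180-141992204, + strand: uAGGGGGCaggagccggagcccucu
miR-3095-3p, chr4:58441023-58441045, - strand: uGGACACUggagagagagcuuuu
miR-3099-3p, chr7:6803638-6803659, + strand: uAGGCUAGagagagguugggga
miR-3059-3p, chr10:101772740-101772761, + strand: cCUCUAGGgaagagaagguugg
miR-3110-3p, chrX:38210488-38210509, + strand: gCACUCCAucggaggcagacac
miR-3093-5p, chr3:88215186-88215207, + strand: cGCACCCCgcggagcucacacu

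The next lines are members with a lower signal in KPC-exosomes, the last 4 of which were detected in MPDC-exosomes only.
miR-3081-5p, chr16:44558092-44558114, - strand: gACUGGAGcuuggagcggugagc
miR-3098-5p, chr6:125195807-125195828, + strand: uCCUAACAgcaggaguaggagc
miR-3069-3p, chr12:105031078-105031099, - strand: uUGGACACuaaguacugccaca
miR-3102-3p, chr7:100882307-100882329, - strand: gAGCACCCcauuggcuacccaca
miR-3101-3p, chr7:27176020-27176040, - strand: uAGCUUUGguggauggucuuu
miR-3068-3p, chr12:87437685-87437706, - strand: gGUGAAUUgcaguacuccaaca

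These 12 seeds all differed from each other. For miR-3106-5p only the probes are shown, as deposited with the scanner output, and the capital marks the base that the longer probe has beyond the shorter one. A probe is complementary to the 3′ end of its miRNA.
miR-3106-5p, longer probe: tggctgcttctaaatgaG
miR-3106-5p, shorter probe: tggctgcttctaaatga

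The members had 221 probes of 10 to 20 bases, 2 for 100 miRNAs and 3 for 7, with 10 to 15 spots each. None of their spots was saturated. A probe was detected when its total signal exceeded 3 times its error, and the signal of a miRNA, in arbitrary units of the scanner, was the sum over its detected probes. Signals of different miRNAs come from different probes, so the signals are compared here between the arrays for the same miRNA, and not between miRNAs. On the array of KPC-exosomes 33 of 107 members were detected (30.8%), where 41.0% of all miRNAs were, and on the array of MPDC-exosomes 48 members (44.9%), where 54.8% of all miRNAs were. Both arrays detected 32 members (29.9%, and 38.6% of all miRNAs), 1 was detected in KPC-exosomes only (0.935%, and 2.45% of all), 16 in MPDC-exosomes only (15%, and 16.2% of all) and 58 on neither (54.2%, and 42.7% of all). In KPC-exosomes the weakest detected member, miR-3074-2-3p, had its best probe at 3.63 errors, and the strongest undetected one, miR-3089-5p, at 2.75 errors. In MPDC-exosomes miR-3067-5p lay just inside with 3.07 errors and miR-3094-5p just outside with 2.94 errors.

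**Figure D1:**
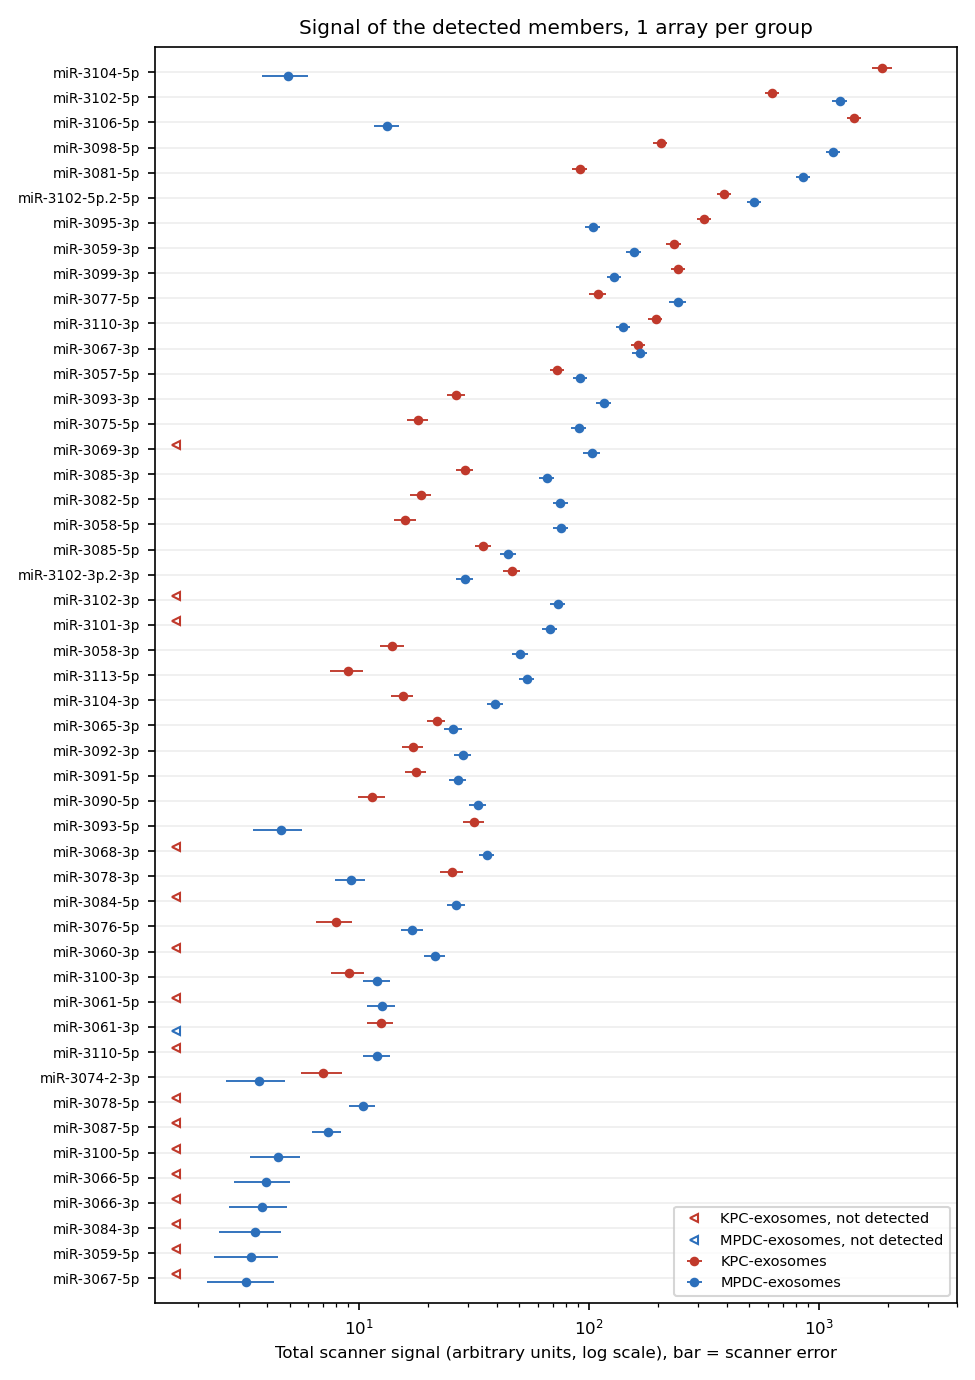
Total scanner signal (horizontal log axis, arbitrary units) of the 49 members detected on at least 1 array, with KPC-exosomes in red, MPDC-exosomes in blue and bars for the scanner error; open triangles at the left edge mark an array that did not detect the miRNA. The red points of miR-3104-5p and miR-3106-5p lie above 1000 and their blue points below 20, while 16 members have a blue point only.

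Most miRNAs gave the weaker signal with KPC-exosomes, and this holds for the members too. Among 32 members seen on both arrays, 22 (68.8%) had a lower and 10 (31.2%) a higher signal in KPC-exosomes, where 81.4% and 18.6% of all miRNAs on both arrays did. Each difference is the log2 signal in KPC-exosomes less that in MPDC-exosomes. The median difference was -0.51 for these 32 members and -1.37 for all 726 miRNAs detected on both arrays. Quantile normalization, which gives both arrays the same distribution of signals and matched the values that the authors deposited, moved the median to 1.16 for the members and 0.53 for all. As a result 14 of the 32 members (43.8%, and 44.1% of all) changed direction with the normalization, and each of these was lower before it and higher after it. For this reason the signals are given first, then the difference before normalization with its scanner error, and then the difference after it.

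Members with a difference of 2-fold or more were called, provided that an array detected them, and a lower bound took the place of the fold where the other array did not. After normalization 19 of the 49 detected members (38.8%) were called higher in KPC-exosomes, where 31.5% of all detected miRNAs were, and 6 members (12.2%) were called lower, where 24.6% of all were. Before normalization 6 members (12.2%) were called higher and 10.1% of all miRNAs, and 27 members (55.1%) were called lower and 64.8% of all. The 6 members called higher before normalization were also called higher after it. Since the numbers of the names chose the members with results of these arrays known, the gaps between these shares are descriptions. The median scanner error of the differences was 0.19 on the log2 scale for the members and 0.18 for all miRNAs.

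**Figure D2:**
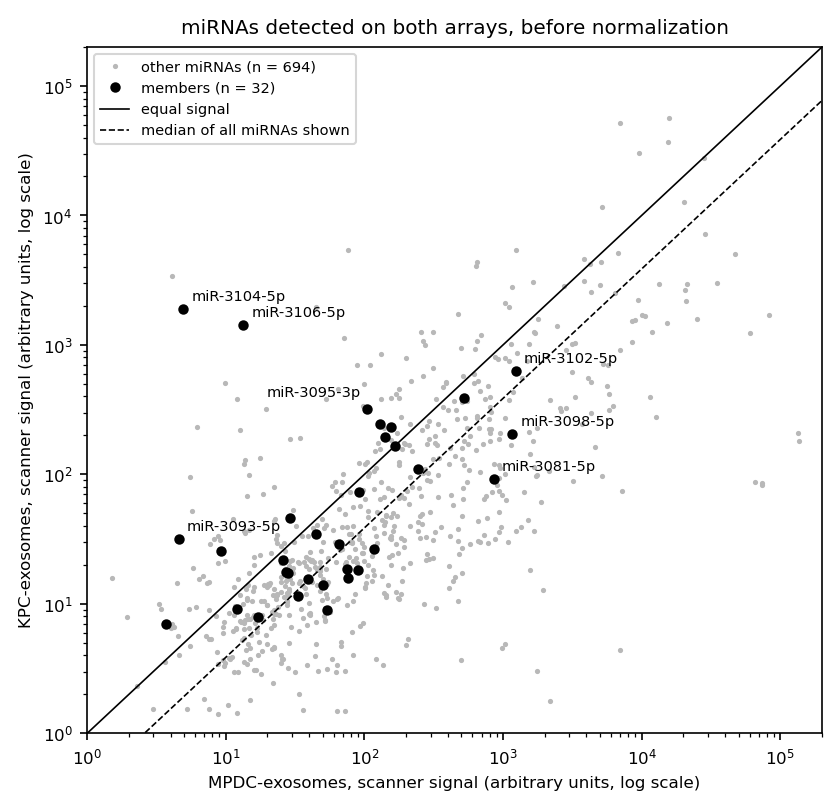
Scanner signal in KPC-exosomes (vertical log axis) against MPDC-exosomes (horizontal log axis), before normalization, for the 726 miRNAs detected on both arrays, with the 32 members in black and the others in grey. The dashed line is the median of all, -1.37 on the log2 scale; 23 of the 32 members lie above it, and miR-3104-5p and miR-3106-5p lie far above the line of equal signal.

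The largest difference among the members was that of miR-3104-5p, the 5′ arm of a hairpin inside Brsk2, which encodes a serine/threonine kinase, on the same strand. Its signal was 1897 ± 182 in KPC-exosomes against 4.92 ± 1.11 in MPDC-exosomes. KPC-exosomes were higher by 8.59 ± 0.35 on the log2 scale before normalization and by 12.25 after it, where the signal in MPDC-exosomes came close to the limit of detection. The longer of its probes, which pairs with bases 13 to 25 of the miRNA, had a total signal of 1811 in KPC-exosomes and 4.92 in MPDC-exosomes. Its 15 spots in KPC-exosomes ranged from 5809 to 6884 in processed signal, and the 14 spots used in MPDC-exosomes from 13.2 to 21.8, so that the spots did not overlap. With the shorter probe, which pairs with bases 14 to 25, the total signal was 85.5 in KPC-exosomes and was not detected in MPDC-exosomes. The probes thus gave the same direction and differ by 1 base in length.

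In the same direction moved miR-3106-5p, from a hairpin inside Csmd1, a gene for a large membrane protein with complement control domains. Signals of 1428 ± 104 in KPC-exosomes and 13.3 ± 1.70 in MPDC-exosomes differed by 6.74 ± 0.21 before and by 11.08 after normalization. Both of its probes showed this, with differences of 6.85 for the longer and 6.65 for the shorter. Spots of the longer probe ranged from 1548 to 3392 in KPC-exosomes and from 15.1 to 27.2 in MPDC-exosomes. The other arm, miR-3106-3p, was detected on neither array.

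Several other members had a higher signal in KPC-exosomes by smaller amounts. miR-3095-3p, whose hairpin lies in Lpar1, the gene of a receptor for lysophosphatidic acid, had a signal of 318 ± 22.6 in KPC-exosomes against 104 ± 7.52 in MPDC-exosomes and was higher by 1.61 ± 0.15 before and by 3.30 after normalization. Both probes gave about the same value, 1.601 and 1.619. miR-3099-3p, from a hairpin inside Usp29, a ubiquitin protease gene, had 246 ± 17.7 and 129 ± 9.32, a difference of 0.93 ± 0.15 before normalization. miR-3059-3p from Mgat4c, a glycosyltransferase gene, had 234 ± 16.8 and 157 ± 11.7, a difference of 0.58 ± 0.15. miR-3110-3p, whose hairpin lies in Tmem255a on the opposite strand, had 195 ± 14.0 and 141 ± 10.1, a difference of 0.47 ± 0.15. The last 3 were thus less than 2-fold higher before normalization, by more than 3 of the combined errors each. Their probes gave 0.93 and 0.94 for miR-3099-3p, 0.91 and 0.37 for miR-3059-3p, and 0.42 and 0.52 for miR-3110-3p. After normalization these miRNAs were 2.75, 2.43 and 2.30 higher on the log2 scale.

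Among dimmer members, miR-3093-5p had 31.7 ± 3.22 in KPC-exosomes against 4.58 ± 1.101 in MPDC-exosomes and was higher by 2.79 ± 0.38 before and by 6.49 after normalization. miR-3078-3p had 25.4 ± 2.93 and 9.25 ± 1.37, a difference of 1.46 ± 0.27 before and 5.67 after, and 1 of its probes was detected on neither array. For miR-3074-2-3p the signals were 7.01 ± 1.41 and 3.70 ± 1.07, a difference of 0.92 ± 0.51 before and 4.41 after normalization. Its shorter probe was detected in KPC-exosomes only. On the longer probe, which both arrays detected, the difference before normalization was -0.03, so that the higher sum came from the shorter probe, near the limit of detection.

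Other members had signals closer to each other on the arrays. miR-3067-3p, whose hairpin lies in Smoc1, the gene of a secreted calcium-binding protein, had 164 ± 11.8 in KPC-exosomes against 167 ± 11.9 in MPDC-exosomes, a difference of -0.02 ± 0.15, and its probes differed in sign, with 0.20 and -0.26. After normalization the same miRNA stood 1.76 higher in KPC-exosomes. miR-3057-5p, from Apba3, likewise went from -0.33 ± 0.15 to 1.49, with signals of 73.1 ± 5.38 and 92.0 ± 6.67. In miR-3100-3p, from Dmpk, the myotonic dystrophy kinase gene, signals of 9.06 ± 1.47 and 12.04 ± 1.65 gave -0.41 ± 0.31 before and 3.90 after normalization. The normalization thus moved the dim miR-3100-3p further than miR-3067-3p. Scaling by the 75th percentile gave 1.14 for miR-3100-3p and 1.52 for miR-3067-3p. With the quantiles of the miRNAs seen on both arrays alone, miR-3100-3p stood at 0.84 and was not called.

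**Figure D3:**
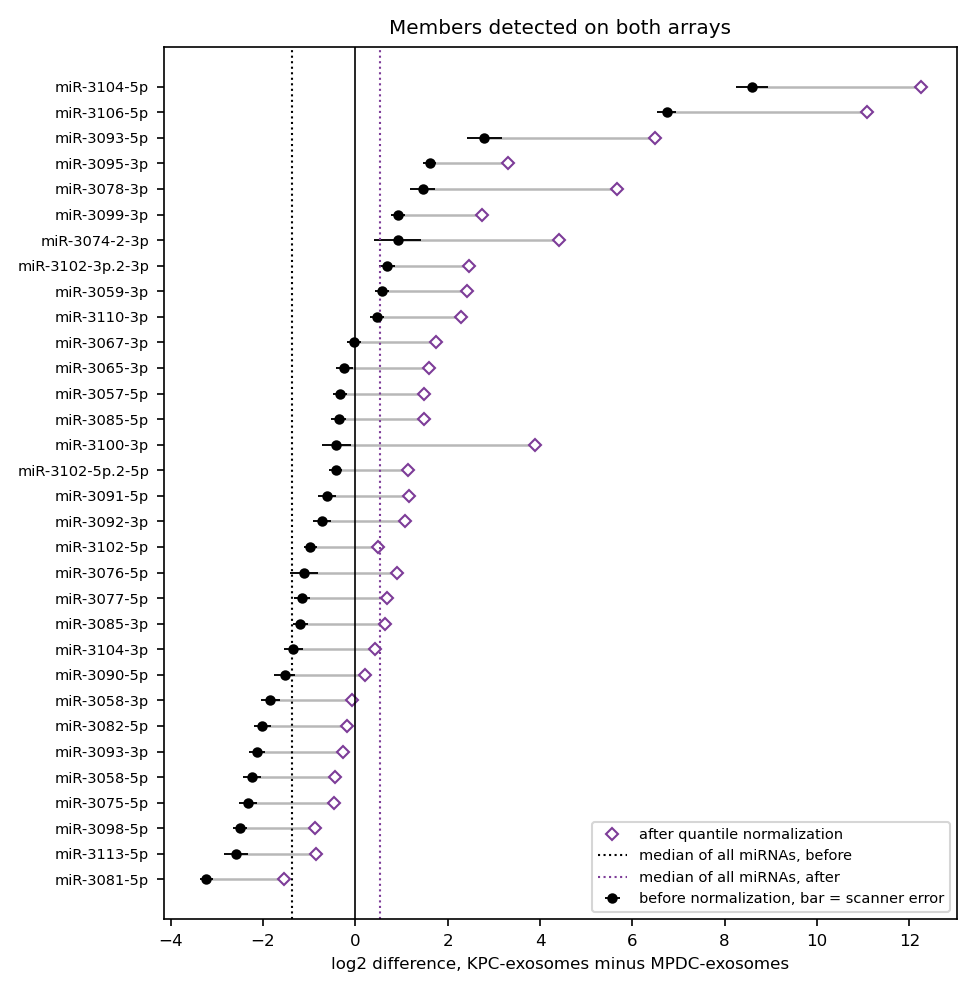
log2 difference, KPC-exosomes minus MPDC-exosomes, of the 32 members detected on both arrays, before normalization (black, bar for the scanner error) and after quantile normalization (open diamonds), with dotted lines at the medians of all 726 miRNAs. Every member moved to the right, and 14 crossed from below 0 to above it.

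The members with the lower signal in KPC-exosomes were led by miR-3081-5p, from a hairpin inside Boc, a Hedgehog co-receptor gene. Its signal was 91.6 ± 6.65 in KPC-exosomes against 855 ± 60.6 in MPDC-exosomes, and the difference was -3.22 ± 0.15 before and -1.54 after normalization. Its probes gave -3.26 and -3.19. It was the only member detected on both arrays that was called lower after normalization. miR-3098-5p, whose hairpin overlapped no other gene in RefSeq, had 205 ± 14.7 and 1158 ± 82.8, a difference of -2.49 ± 0.15 before and -0.87 after. miR-3113-5p, from a hairpin inside Huwe1, the gene of a ubiquitin ligase, had 8.98 ± 1.46 and 53.8 ± 4.06, a difference of -2.58 ± 0.26 before and -0.84 after. miR-3075-5p from Zmiz1 and miR-3058-5p from Nudt4 completed the 5 lowest, with -2.32 ± 0.19 and -2.25 ± 0.20 before normalization and -0.45 for each after it. miR-3077-5p, from Sap18, the gene of a subunit of a histone deacetylase complex, had 109 ± 9.29 in KPC-exosomes against 245 ± 20.5 in MPDC-exosomes, -1.16 ± 0.17 before and 0.68 after normalization. miR-3082-5p (-2.01 before normalization), miR-3090-5p (-1.53), miR-3076-5p (-1.11), miR-3092-3p (-0.71) and miR-3091-5p (-0.60) also had lower signals in KPC-exosomes, from 7.94 to 18.7 there and from 17.1 to 75.4 in MPDC-exosomes. Relative to the median of all miRNAs, 3 members lay at least 2-fold below it (miR-3081-5p, miR-3113-5p and miR-3098-5p), which is 9.38% of the 32 where 29.1% of all miRNAs were, and 14 at least 2-fold above, 43.8% where 26.0% of all were.

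Detected in MPDC-exosomes only were 16 members, 15% where 16.2% of all miRNAs were, with signals from 3.23 to 103 and a median of 11.2. Their folds are against the lowest signal detected for any miRNA on the array of KPC-exosomes, or their own signal over all probes there if that was higher. A stricter bound, the sum of 3 scanner errors over all probes of the miRNA, is given after them. The strongest was miR-3069-3p, whose hairpin lies inside the host transcript Snhg10 and over Scarna13, a guide RNA for the modification of spliceosomal RNA. Its signal in MPDC-exosomes was 103 ± 8.85, which made it at least 73.2-fold lower in KPC-exosomes before normalization and at least 11.9-fold lower after it. The 15 spots of its longer probe ranged from 260 to 331 in MPDC-exosomes and from -2.15 to 5.26 in KPC-exosomes. miR-3102-3p followed with 73.4 ± 5.39, at least 29.6-fold lower before and 6.30-fold lower after normalization, and miR-3101-3p, from a hairpin inside the trafficking gene Rab4b, with 67.7 ± 5.001, at least 48.2-fold lower before and 7.83-fold lower after. miR-3068-3p, inside Alkbh1, had 36.1 ± 2.75 and a bound of 25.7-fold before and 4.36-fold after. miR-3084-5p had 26.5 ± 2.41, with bounds of 18.9-fold and 3.18-fold, and comes from either of 2 loci, 1 in Cbwd1 and 1 in Eif3a where it overlaps the small nucleolar RNA gene Snora19. These 5 were the ones called lower after normalization. With the stricter bound miR-3069-3p was at least 18.5-fold lower before and 4.98-fold lower after normalization, miR-3102-3p 12.99-fold and 3.56-fold, and miR-3101-3p 12.1-fold and 3.27-fold, whereas miR-3068-3p (1.82-fold after) and miR-3084-5p (1.33-fold after) were no longer called. Before normalization 8 of the 16 were called lower with the stricter bound. No share over all miRNAs is given for this bound, so that count is a description only. Of the other 11, miR-3060-3p had 21.4 ± 2.28 and was at least 10.4-fold lower before and 1.94-fold lower after normalization (3.79-fold before and no fold after with the stricter bound), and miR-3087-5p had 7.32 ± 1.08. The arms miR-3100-5p, miR-3066-5p, miR-3066-3p and miR-3084-3p had signals of 4.47, 3.93, 3.80 and 3.53, all close to the limit of detection. For 10 of these 11 the normalized signal was not above the limit on the other array, which leaves no fold after normalization. The only member detected in KPC-exosomes alone was miR-3061-3p, with a signal of 12.4 ± 1.59. It was at least 4.29-fold higher before and 42.2-fold higher after normalization, and at least 2.06-fold and 29.3-fold higher with the stricter bound. After normalization all 46 miRNAs detected in KPC-exosomes only were called higher, so that call does not set miR-3061-3p apart.

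The arms of 1 hairpin are cut from the same precursor, and their differences between the arrays can be set side by side. Both arms were detected on the same array in 12 hairpins, all 12 on the array of MPDC-exosomes and 5 of them on that of KPC-exosomes. A 13th hairpin, miR-3061, had each arm on another array, since the 3p arm was detected in KPC-exosomes only and the 5p arm, with 12.6 ± 1.72, in MPDC-exosomes only. In 21 hairpins 1 arm was detected and the other on neither array, and in 18 none was. These counts have no share over all hairpins beside them. Of all miRNAs, the array of KPC-exosomes detected 41.0% and that of MPDC-exosomes 54.8%, so the counts are descriptions only.

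The arms differed most in miR-3104, where the 5p arm was higher in KPC-exosomes by 8.59 and the 3p arm, with 15.5 ± 1.72 and 39.3 ± 3.12, at -1.34 ± 0.20, which is near the median of all miRNAs. In miR-3093, which lies in the non-coding RNA Gm3764, the 5p arm was higher by 2.79 ± 0.38 and the 3p arm lower, with 26.6 ± 2.43 in KPC-exosomes against 117 ± 8.84 in MPDC-exosomes, a difference of -2.13 ± 0.17. The 3p arm of miR-3110 was higher, and its 5p arm was detected in MPDC-exosomes only, with 12.1 ± 1.66. The same held for miR-3078, whose 5p arm had 10.4 ± 1.31 in MPDC-exosomes. In miR-3059 and miR-3067 the 5p arm was likewise detected in MPDC-exosomes only, at signals of 3.40 ± 1.05 and 3.23 ± 1.05, close to the limit, and under the stricter bound these 5p arms, both arms of miR-3066, miR-3084-3p and miR-3100-5p have no direction. By contrast, both arms of miR-3058 were lower, -2.25 ± 0.20 for 5p and -1.85 ± 0.21 for 3p. The probes of its 3p arm disagreed in size, with -2.29 for the longer and -1.14 for the shorter. Both arms of miR-3085 were lower, -0.35 ± 0.16 and -1.19 ± 0.16. Over all members detected on both arrays, the median difference before normalization was -1.11 for the 17 5p arms and -0.02 for the 15 3p arms, while it was -1.35 and -1.34 for all miRNAs of these arms.

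**Figure D4:**
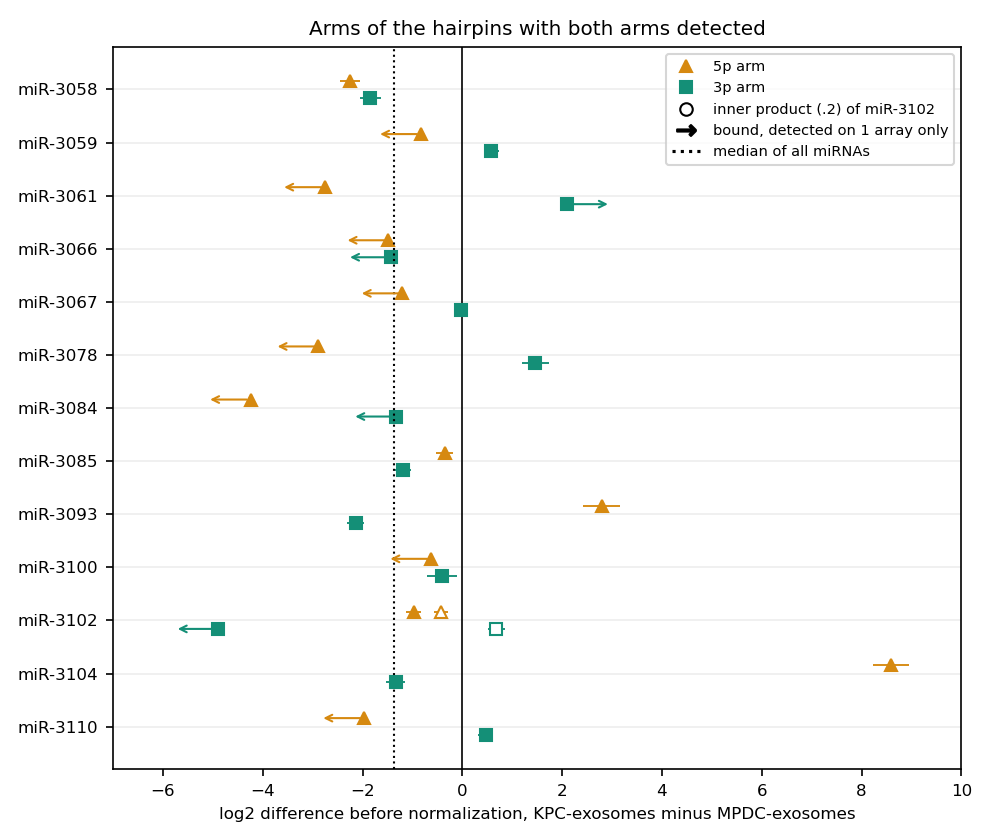
log2 difference before normalization, KPC-exosomes minus MPDC-exosomes, of the 5p arm (triangles) and the 3p arm (squares) of the 13 hairpins with both arms detected; bars show the scanner error, arrows mark bounds of arms detected on 1 array only, against the lowest detected signal of the other array or the arm's own signal there, and the dotted line is the median of all miRNAs at -1.37. As drawn, the arms lie on opposite sides of 0 in miR-3059, miR-3061, miR-3078, miR-3093, miR-3104 and miR-3110. They lie on the same side in miR-3058, miR-3066, miR-3084, miR-3085 and miR-3100. With the stricter bound miR-3059-5p, miR-3066-5p, miR-3066-3p, miR-3067-5p, miR-3084-3p and miR-3100-5p have no direction. In miR-3067 the 3p arm lies at -0.02, and open symbols are the inner products of miR-3102.

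miR-3102 gives 4 named products from 1 hairpin inside Arhgef17. They lie along the hairpin in the order 5p, 5p.2, 3p.2 and 3p, and on each arm the outer and the inner product are adjoining, with 0 bases between them. The outer 5p product, whose mature sequence is rich in G, and the inner ones are shown with their seeds for comparison with miR-3102-3p above.
miR-3102-5p, chr7:100882388-100882409, - strand: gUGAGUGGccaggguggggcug
miR-3102-5p.2-5p, chr7:100882367-100882387, - strand: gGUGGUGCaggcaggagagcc
miR-3102-3p.2-3p, chr7:100882330-100882350, - strand: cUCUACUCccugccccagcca

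The outer 5p product had 629 ± 45.6 in KPC-exosomes against 1236 ± 88.3 in MPDC-exosomes, a difference of -0.97 ± 0.15. The inner 5p product had 389 ± 27.6 and 523 ± 37.0, a difference of -0.43 ± 0.14. On the other arm the inner product had 46.3 ± 3.76 and 28.9 ± 2.49, higher in KPC-exosomes by 0.68 ± 0.17, whereas the outer product was not detected there. Going along the hairpin, the outer products were thus lower in KPC-exosomes than the inner ones relative to MPDC-exosomes on both arms. The probes of the inner 3p product disagreed, with 1.26 for the longer and -0.11 for the shorter, the widest gap between probes among the 28 members with at least 2 probes detected on both arrays (median gap 0.10).

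RefSeq gave 54 loci for the members, of which 50 overlapped another gene and 45 a protein-coding one. The tables do not give exons, so it is not stated whether a hairpin is intronic or exonic. For 30 of the 45 the hairpin was on the strand of a protein-coding gene, and for 5 on the other. Mir3082 counts in both, since it overlaps Stub1 on the same strand and Jmjd8 on the opposite one. For the rest of the 45 the tables give no strand to compare. A few hairpins overlapped another miRNA gene on the opposite strand, whose products have sequences complementary to theirs. Mir3074-1 and Mir3074-2 lie opposite Mir24-1 and Mir24-2. Beside the low signals of miR-3074-2-3p, miR-24-3p, the shared product of the opposite strand, had 4582 ± 330 in KPC-exosomes against 3809 ± 277 in MPDC-exosomes, a difference of 0.27 before normalization. miR-24-2-5p, the other product of Mir24-2, had 12.96 ± 1.61 and 28.4 ± 2.48. The other products of the Mir3074 loci, miR-3074-5p and miR-3074-1-3p, were detected on neither array. Mir3065 lies opposite Mir338. miR-3065-3p had 21.8 ± 2.03 and 25.7 ± 2.31, a difference of -0.24 ± 0.19, while miR-338-5p had 1.52 ± 0.46 and 36.2 ± 2.58, and miR-338-3p was detected in MPDC-exosomes only, with 12.1 ± 1.57.

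Other hairpins lie beside a miRNA gene of the nervous system. Mir3093 lies 341 bases from Mir9-1 on the same strand, and miR-9-3p had 15.1 ± 1.74 in KPC-exosomes and 435 ± 33.2 in MPDC-exosomes, while miR-9-5p was detected in MPDC-exosomes only, with 75.4 ± 5.90. The 3p arm of miR-3093 was also lower in KPC-exosomes, at -2.13 before and -0.26 after normalization, where miR-9-3p was at -4.85 and -3.01. Its 5p arm was higher. A lower signal was common, with 81.4% of all miRNAs detected on both arrays before normalization. Mir3078 lies 444 bases from Mir124a-1, inside the same host transcript Mir124a-1hg. miR-124-3p had 4.40 ± 1.03 in KPC-exosomes and 7005 ± 631 in MPDC-exosomes, whereas miR-3078-3p had the higher signal in KPC-exosomes. miR-124-3p has more than 1 gene in the mouse, and the array does not tell them apart.

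Among the members, 13 share a seed with another miRNA of RefSeq, in 11 groups. miR-3101-3p and miR-7223-5p have the seed AGCUUUG and both were detected in MPDC-exosomes only, with signals of 67.7 ± 5.001 and 41.4 ± 3.39.
miR-7223-5p, chr11:107996848-107996867, + strand: uAGCUUUGcugaggugucgg

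In other groups the miRNAs differed in detection. miR-3102-5p shares UGAGUGG with miR-702-5p, which was detected in MPDC-exosomes only, at 6.23 ± 1.18. miR-3103-5p, detected on neither array, shares GAGGGAG with miR-7047-5p, which had 4217 ± 340 in KPC-exosomes and 4271 ± 340 in MPDC-exosomes, and with miR-6965-5p, which had 119 ± 8.58 and 527 ± 37.3. miR-3091-3p was detected on neither array either, and miR-2861 with the same seed GGGCCUG had 1397 ± 98.9 and 2458 ± 174. A further pair of members share a run shifted by 1 base, since uggacacu makes up bases 1 to 8 of miR-3095-3p and bases 2 to 9 of miR-3069-3p. The former had the higher signal in KPC-exosomes, and the latter was detected in MPDC-exosomes only.

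The GC content of the mature sequences is given by detection, without a test. Members detected on both arrays had a median GC content of 64.4% (26 sequences), those in MPDC-exosomes only 54.5% (15) and those on neither array 50% (53). For all miRNAs of these classes it was 57.1%, 52.2% and 50%. At least 50% GC was found in 25 of the 26 members detected on both arrays (96.2%) and in 74.2% of all miRNAs detected on both. The exception among the members was miR-3095-3p, with 47.8%. Among the 26, GC content and the difference before normalization had a Spearman correlation of 0.03 and a Pearson correlation of 0.12. Over the 631 sequences of all miRNAs detected on both arrays, each was 0.18. These values are descriptions over miRNAs that share the same arrays. Probes on this platform are shortened for miRNAs rich in GC, so GC content and probe length vary together.

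**Figure D5:**
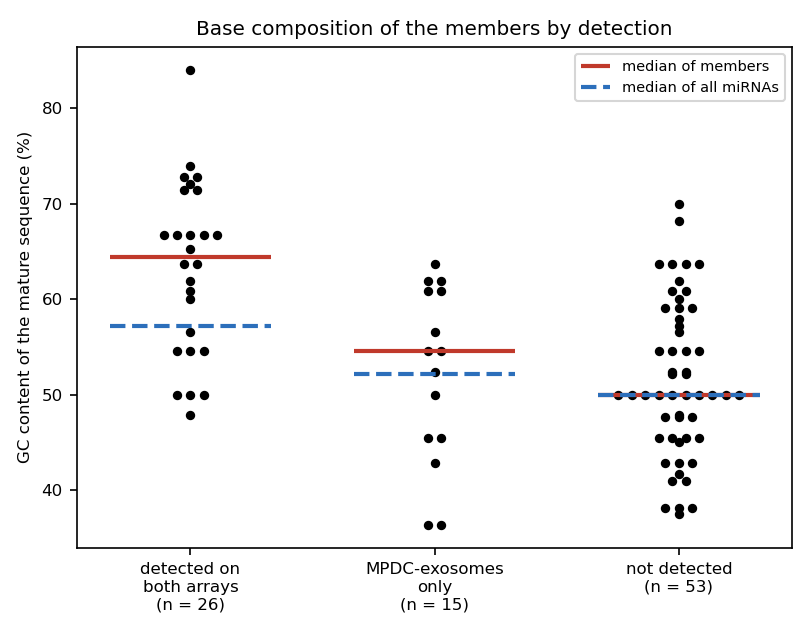
GC content of the mature sequence (vertical axis, %) of the members by detection, each point 1 member, with the median of the members (red) and of all miRNAs in the same class (blue, dashed). The medians of the members fall from 64.4% to 54.5% and 50%; the 1 member detected in KPC-exosomes only is left out.

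The labelled cell types were checked against marker miRNAs. All 5 of the epithelial miR-200 family were detected on both arrays, with a summed signal of 98.8 in KPC-exosomes and 1669 in MPDC-exosomes. Of 5 pancreas miRNAs, the KPC array detected only miR-217-5p (60.9) and the MPDC array only miR-148a-3p (1190), and miR-216a-5p, miR-216b-5p and miR-375-3p were detected on neither array. Of 8 miRNAs of pluripotent cells, 4 were detected in KPC-exosomes with a summed signal of 436 and 8 in MPDC-exosomes with 349980. All detected miRNAs summed to 429230 in KPC-exosomes and 1406240 in MPDC-exosomes. The largest signal on the array of MPDC-exosomes was that of miR-292a-3p of this list, with 135570. The markers thus do not bear out the ductal epithelial label of MPDC alone, and the name MPDC-exosomes follows the label. Nor do they settle the pancreatic label of KPC cells, with the lower epithelial sum and 1 of 5 pancreas miRNAs detected. The name KPC-exosomes likewise follows the label. White blood cell miRNAs summed to 248 and 322, but went opposite ways, since miR-142a-3p had 188 in KPC-exosomes against 29.1 in MPDC-exosomes and miR-142a-5p was detected in KPC-exosomes only (28.4), while miR-223-3p had 32.0 against 184 and miR-150-5p was detected in MPDC-exosomes only (109). The red blood cell miRNAs summed to 30.6 and 153. The part of these differences between the cell lines in the values of the members was not tested.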

How the data were processed

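miRNAs of 1 KPC-exosome and 1 MPDC-exosome preparation were measured on 1-colour Agilent mouse miRNA arrays. The authors deposited the scanner output, whose signals and errors are background-subtracted intensities, and log2 values per miRNA normalized in GeneSpring by a method not given in the sources used here. The file headers name Feature Extraction 10.7.1.1, and the submitters' processing notes 9.1. Total signals of probes above 3 errors were summed per miRNA, miRNAs without one were set to 0.1, and log2 values of 1881 miRNAs and 21 control features were quantile normalized, which gave the deposited log2 values within 1.11e-05. This step shifts dim and bright signals unequally.

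Bounds set a normalized signal against the lowest detected signal of the other array, or against the sum of all probes of that miRNA there if this was higher. With 1 array per group no test was made, and precision is limited by the number of arrays. Sequences and gene positions came from RefSeq tables (GRCm38.p6). Host genes were matched by overlapping positions. Named miRNAs were members with a signal of at least 100, the 5 largest differences each way, the 5 strongest on 1 array only, hairpins with both arms detected, members sharing a seed or overlapping gene with another miRNA, and up to 5 that changed direction; miRNAs beside a hairpin, and members inside or outside a threshold, were picked with their values known. The members, lists and marker miRNAs were chosen with earlier results of these data known. The steps were tested on simulated data. Scripts ran under R 4.3.3 (limma 3.58.1, for normexp) and Python 3.11.15 (matplotlib 3.10.9, numpy 2.4.6, pandas 2.3.3).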

Additional observations from a re-analysis of the deposited data

How the results depend on the processing

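Precision is limited by 1 array per group, and the smallest detected signals lie within a few scanner errors of the limit of detection. No paired analysis was possible because each group has 1 array. The members named by the rule given with the processing included 32 with a difference after quantile normalization. These are not the 32 members detected on both arrays. They include 5 detected in MPDC-exosomes only and leave out miR-3076-5p, miR-3082-5p, miR-3090-5p, miR-3091-5p and miR-3092-3p. All kept the sign of the difference when the miRNAs seen on both arrays set the scale (by their 75th percentile, their median or their quantiles alone). The same held with the processed signal, the brightest probe and the deposited values. It also held for 2 settings chosen after seeing the data, the sum over the probes detected on both arrays and bounds at 3 errors of every probe. The sign was kept by 31 with normexp correction and by 22 without normalization.

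Without normalization the members called higher numbered 6 in place of 19, those called lower 27 in place of 6, and the median difference of the members detected on both arrays was -0.51 in place of 1.16. Among the 32 members detected on both arrays, the 8 called differences that turned were miR-3057-5p (-0.33), miR-3065-3p (-0.24), miR-3067-3p (-0.024), miR-3085-5p (-0.35), miR-3100-3p (-0.41), miR-3102-5p.2-5p (-0.43), miR-3091-5p (-0.60) and miR-3092-3p (-0.71). With normexp, 10 were called higher and 2 lower, with a median of 0.47. A 4-fold threshold left 12 higher. Members called lower numbered 10 with scaling by the 75th percentile, 12 with the quantiles of the miRNAs seen on both, 17 with undetected signals at the floor, with or without the filter on detection, and 1 among members detected on both arrays. The median was 0.75 with the quantiles of the miRNAs seen on both, 0.96 with the processed signal and 1.39 with the brightest probe. For miR-3074-2-3p the sum over the probes detected on both arrays gave 3.68 after normalization. With bounds at 3 errors of every probe 19 members were called higher and 4 lower. Under all 11 settings of signal, bound and normalization, 4 members were called higher (miR-3106-5p, miR-3104-5p, miR-3095-3p and miR-3093-5p) and 2 lower (miR-3069-3p and miR-3081-5p). Detection above 5 errors left 30 members in KPC-exosomes and 39 in MPDC-exosomes. Except for the counts without normalization, no share over all miRNAs is given for these settings. The counts therefore describe the members and do not set them apart from other miRNAs.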
